A study of Pogonatum aloides with 7 samples.

Results

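Middle-sized capsules of developmental stage 4 were set against small capsules of developmental stage 2 in the moss Pogonatum aloides. The pair took 2 of the 7 samples of the series, chosen by their stage labels, with 1 library a side. All samples are labelled wild type, no treatment is given, and the number of capsules or plants behind a library is not given in the sources used here. The series also holds small capsules of stages 1 and 3, big capsules of stage 5 and young gametophytes, labelled seedlings, which serve as its control. It further holds a pool of capsules and gametophytes, which was not analysed here. No library has a second one of its stage, so every difference below describes these 2 libraries and has no replicate check.

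The moss capsule is the spore-bearing end of the diploid sporophyte, which grows on and is fed by the haploid leafy gametophyte. Inside it, spore mother cells pass through meiosis and the spores then build a resistant wall and take up reserves. Other tissues form the capsule wall, the central columella and the mouth of the capsule. In mosses of this family a hairy hood of gametophyte tissue, the calyptra, covers the young capsule. The labels do not say whether it was removed, nor at which of these steps stage 2 or stage 4 stood. Comparing the 2 stages asks which transcripts distinguish a middle-sized capsule from a small one. Each library is RNA of whole organs, in which fewer cells of a type and less RNA per cell cannot be told apart.

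Expression was measured by RNA sequencing and is given as RPKM, the reads on a sequence scaled to its length and to the total reads of the library. The sequences are unigenes, that is, transcripts assembled from the reads without a genome, and the table holds 74566 of them. Their identifiers are not paired with gene names, so that neither the tissue nor any pathway could be checked against marker genes, and unigenes are described here by level, length and profile. The steps between low values implied totals of 5458335 reads in stage 4 and 5752394 reads in stage 2, and whole reads could be worked back for every listed value of both. At these depths 3 reads on a unigene of 1 kilobase, the limit that a count of 0 allows, equal 0.550 RPKM for stage 4 and 0.522 RPKM for stage 2. Intervals of read ratios are exact 95% conditional-binomial intervals from these reads and cover counting error only, since reads without molecular identifiers are not independent molecules.

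Most of what was read in one library was read in the other as well. Of 46937 unigenes listed in either file, 33078 were listed in both, 6191 in stage 4 and not in stage 2, and 7668 in stage 2 and not in stage 4. The shared unigenes made up 84.2% of the 39269 listed in stage 4 and 81.2% of the 40746 listed in stage 2. If the stage 2 reads were thinned to the number of stage 4 reads, 40339 unigenes would be expected to be listed in stage 2 and 7472 of the unshared ones would remain. Many unshared unigenes rest on a single read. By the reads worked back, that was the case for 36.0% of those found in stage 4 and not in stage 2. For those found in stage 2 and not in stage 4 it was 46.5%. Reads worked back can be too low, most of all for unigenes listed in a single library, so these shares may be too high.

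Levels were compared by the ratio of RPKM + 1 for the 33800 unigenes that reached 1 RPKM in at least one of the 2 files. At a size of 2-fold, 5696 were higher in stage 4 (16.9% of those compared) and 6466 were lower (19.1%). The median log2 ratio was −0.07. These totals mix different things, because an unshared unigene of 1 RPKM or more reaches 2-fold through the added 1 alone. All 3421 such unigenes of stage 4 and all 2946 of stage 2 therefore count as different by construction, and the unshared and the shared unigenes are described apart.

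Among the 27433 shared unigenes, differences were mostly small and more often towards lower levels in stage 4. There, 2275 were higher (8.29%) and 3520 were lower (12.8%) by 2-fold, with a median log2 ratio of −0.09 and a middle range, between the quartiles, from −0.61 to 0.42. At 4-fold the 2 directions were close, with 427 higher (1.56%) and 457 lower (1.67%). At 16-fold the order turned, with 109 higher (0.397%) and 12 lower (0.0437%). The upper end of the distribution was thus longer than the lower end. The balance at 2-fold depends on how the libraries are scaled: with the upper quartiles of the listed values set equal, which shifts the median by −0.36, 18.0% of the shared unigenes that differ were higher, against 39.3% with the values as deposited. The upper quartiles were taken over all listed values, unshared unigenes included. This share was 33.8% at equal summed RPKM and 42.9% with median-ratio scaling, so the other scalings moved it less.

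**Figure D1:**
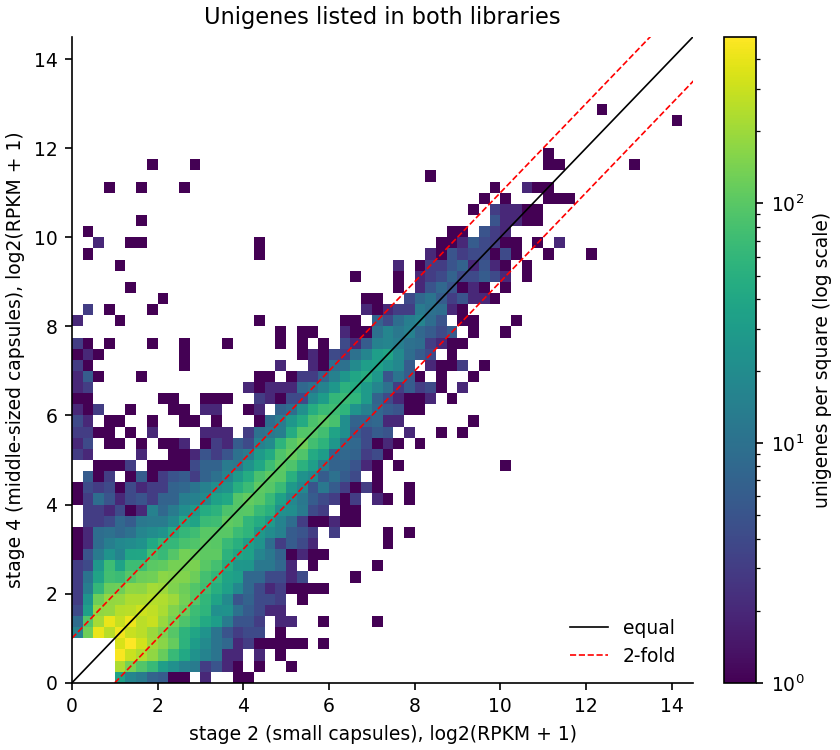
Number of shared unigenes by level, with log2(RPKM + 1) of stage 2 across and of stage 4 upwards, in small squares coloured on a log scale. Dashed lines mark 2-fold. Most of the 27433 unigenes lie between them, and the 109 that were higher by 16-fold form a sparse cloud at the upper left, with no such cloud at the lower right.

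Many of the ratios lay within counting error. Of the 2275 shared unigenes higher by 2-fold, the interval lay wholly beyond 2-fold for 588, excluded equality without clearing 2-fold for 785, and covered equality for 902. Of the 3520 lower ones these numbers were 980, 1464 and 1076. Over all shared unigenes, by the interval alone, 590 were higher (2.15%) and 983 were lower (3.58%) beyond 2-fold, and 6366 (23.2%) had an interval wholly within 2-fold. For the remaining unigenes the depth does not tell whether they differ by that much.

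The share that differed also moved with abundance. For a mean level of the 2 libraries from 2 to 5 RPKM, 11.8% of 7763 shared unigenes were higher and 17.4% lower by the ratio, whereas the interval left 78 higher and 214 lower. From 30 to 100 RPKM both measures came near each other, with 5.45% higher and 7.30% lower of 2917 by the ratio and 3.63% and 5.45% by the interval. At 1000 RPKM or more, 9 of 59 were higher and 9 lower by either measure. With length the measures ran in opposite directions. By the ratio, 12.6% were higher and 12.8% lower for lengths from 200 to 300 bases, and 4.09% were higher and 9.54% lower from 2000 bases on. By the interval, 0.733% were higher and 0.626% lower in the short class, and 3.06% were higher and 7.13% lower in the long one. Lengths here are those worked back with the reads.

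**Figure D2:**
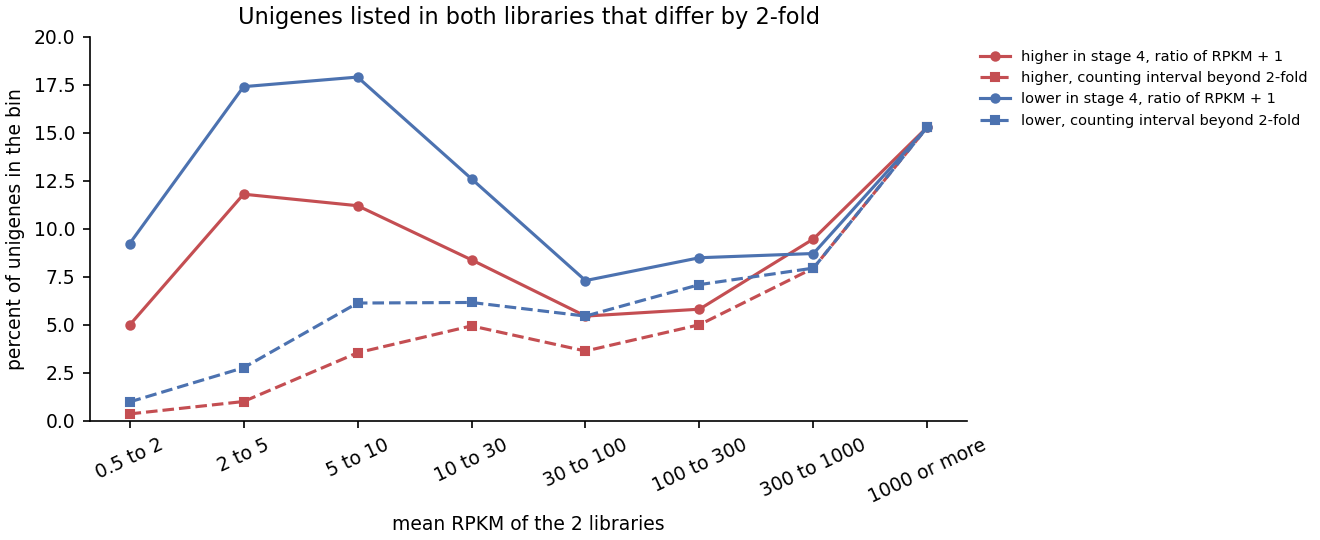
Percent of shared unigenes that were higher (red) or lower (blue) in stage 4 by 2-fold, for 8 ranges of the mean RPKM of the 2 libraries. Solid lines with circles use the ratio of RPKM + 1, and dashed lines with squares require the 95% counting interval to lie wholly beyond 2-fold. The lines lie far apart from 2 to 5 RPKM and meet at 1000 RPKM or more, at 15.3% in each direction.

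With a minimum of 10 RPKM in either file the picture was dominated by unigenes of stage 4. Of the 10126 unigenes kept, 2119 were higher (20.9%) and 1137 lower (11.2%) by 2-fold, and 1137 were higher (11.2%) and 19 lower (0.188%) by 16-fold. The median log2 ratio stood at 0.06. At 2-fold the excess came from the unshared unigenes. At 16-fold the shared ones had an excess as well, with 109 higher (1.24%) and 12 lower (0.137%). Those listed in stage 4 and not in stage 2 numbered 1339 at this minimum, while those listed in stage 2 and not in stage 4 numbered 15. Among the 8772 shared unigenes the direction was the other way at 2-fold, with 780 higher (8.89%) and 1122 lower (12.8%), a median log2 ratio of −0.05 and quartiles of −0.50 and 0.35. The values closest to the 10 RPKM minimum were 9.9983 RPKM outside it and 10.0013 RPKM inside, and those closest to the 1 RPKM minimum were 0.9993 and 1.0003 RPKM.

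The unshared unigenes of stage 4 formed a distribution with a pair of peaks. The first lay between 0.5 and 1 on the log2 RPKM scale with 589 unigenes, and the second between 4.5 and 5 with 295 unigenes, with a low of 149 unigenes between 2.5 and 3. The unshared unigenes of stage 2 had the first peak, with 934 unigenes between 0.5 and 1, and no second one: 0 lay between 4.5 and 5. In stage 4 far more of them had a high level. At 5 RPKM or more there were 1675 in stage 4 and 137 in stage 2, at 20 RPKM or more 804 and 4, and at 100 RPKM or more 54 and 1. By reads, 1164 had at least 20 in stage 4, against 29 in stage 2, and 294 had at least 100, against 5. Stage 4 was the shallower of the 2 libraries.

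**Figure D3:**
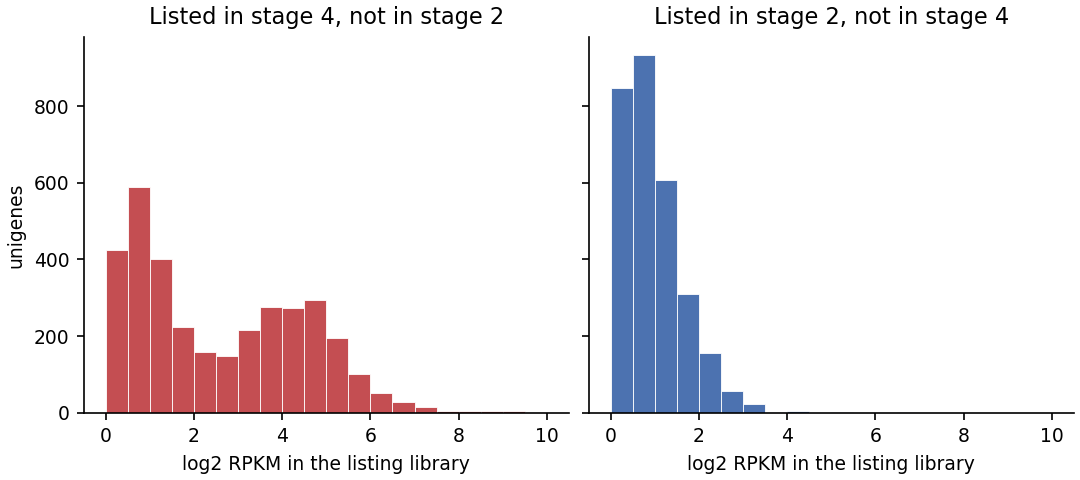
Distribution of the level of unshared unigenes of at least 1 RPKM, in steps of 0.5 log2 units, for the 3421 listed in stage 4 and not in stage 2 (left, red) and the 2946 listed in stage 2 and not in stage 4 (right, blue). The left panel has a second peak of 295 unigenes between 4.5 and 5, where the right panel has 0.

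The contrast was similar when a low level in the other library was allowed besides none. The wider sets include the 1339 unshared unigenes of stage 4 and the 15 of stage 2, so they are not a separate check. At least 10 RPKM in stage 4 with under 1 RPKM in stage 2 was found for 1474 unigenes (14.6% of the 10126). The reverse was found for 48 (0.474%). Among unigenes of at least 500 bases these numbers were 405 and 22, and with upper-quartile scaling of all lengths they were 1251 and 65.

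The unigene highest in stage 4 among those not listed in stage 2 was Unigene30416, of 572 bases. It stood at 755 RPKM (2358 reads) in stage 4 and was not read in stage 2, so that it was at least 828-fold higher in stage 4 against the limit of 3 reads in the stage 2 library. The exact 95% interval of the read ratio begins lower, at 673. It was near the limit elsewhere, at 1.83 RPKM (6 reads) in stage 3 and 0.305 RPKM (1 read) in stage 5, and was listed neither in stage 1 nor in the gametophyte. Stage 4 was therefore the only library with more than 6 reads of it. The next 9 unigenes of this kind ranged down to 398 RPKM in stage 4. All 10 had some reads in stage 3, at 0.504 to 2.33 RPKM (2 to 9 reads each), and none was listed in the gametophyte. In stage 1, 7 of the 10 were listed, at 0.666 RPKM or less. In stage 5, 8 of the 10 were listed, and one of these stood at 690 RPKM there and at 576 RPKM in stage 4, while the other 7 lay between 0.225 and 1.25 RPKM.

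The 1339 unshared unigenes of at least 10 RPKM in stage 4 were short, single and little read elsewhere. Their median was 24.0 RPKM in stage 4, with quartiles of 15.4 and 36.1 RPKM. The median length was 309 bases, against 1417 bases for the 6870 shared unigenes within 2-fold. Contigs of a numbered cluster made up 36 of them (2.69%), against 38.9% of the shared ones within 2-fold. Short length and few contigs were not particular to stage 4. The 15 unshared unigenes of stage 2 at this minimum had a median of 313 bases and 6.67% contigs. At 1 RPKM or more, unshared unigenes had median lengths of 273 bases in stage 4 and 279 bases in stage 2, with 6.87% and 9.88% contigs. The 1339 held 6.68% of the summed RPKM of stage 4 and 2.84% of its reads, with a median of 40 reads each. Lengths of unigenes listed in a single library rest on 1 value and can be underestimated.

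In the 4 libraries that took no part in choosing them, 943 of the 1339 (70.4%) were not listed at all, and 1261 (94.2%) stayed under 1 RPKM in each. Stage 3 listed 231 of them (17.3%), stage 5 listed 221 (16.5%), stage 1 listed 67 and the gametophyte listed 19 (1.42%). A level of 10 RPKM was reached by 18 of them in stage 5, by 3 in stage 1, by 0 in stage 3 and by 1 in the gametophyte. The gametophyte library was the shallowest, at an implied 3821669 reads, where 3 reads on 1 kilobase equal 0.785 RPKM. Not being listed there is therefore weaker evidence of absence, here and in the other comparisons. The 1339 were also short, with a median of 309 bases. On 450 bases, 3 reads already equal 1.16 RPKM at the stage 2 depth. For unigenes this short, 0 reads in a library do not show a level under 1 RPKM. For the shared unigenes within 2-fold at the same minimum, 90.8% were listed in all of these 4 libraries and 0.0728% in none.

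The largest ratio among shared unigenes was that of CL13629.Contig1, a contig of 450 bases. It stood at 2129 RPKM (5230 reads) in stage 4 and at 0.773 RPKM (2 reads) in stage 2. Scaled to the library totals, its reads gave a ratio of 2756 (95% exact interval, 763 to 22762), and the log2 ratio of RPKM + 1 was 10.23. The other capsule libraries were also low, with 1.55 RPKM for stage 1, 5.80 RPKM for stage 3 and 2.72 RPKM for stage 5, and it was not listed in the gametophyte.

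The 10 shared unigenes with the largest ratios ran from 795 to 3166 RPKM in stage 4 and from 0.256 to 6.54 RPKM in stage 2. That distance follows from how they were chosen. None of the 10 exceeded 0.267 RPKM in the gametophyte, and 9 were not listed there. Their levels in stage 5 spread from 1.17 to 820 RPKM. The second by ratio, of 282 bases, had 3166 RPKM in stage 4 and 2.47 RPKM in stage 2, with 131 RPKM in stage 5. The fourth, of 546 bases, had 2088 RPKM in stage 4 and 1.91 RPKM in stage 2, with 820 RPKM in stage 5 and 45.5 RPKM in stage 1. By contrast the third, of 1042 bases, had 1202 RPKM in stage 4 and 0.334 RPKM in stage 2, with 1.17 RPKM in stage 5. The ninth, of 1037 bases, was the most read of them, with 17605 reads (3110 RPKM) in stage 4 and 39 reads (6.54 RPKM) in stage 2, and with 273 RPKM in stage 5.

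The 109 shared unigenes higher by 16-fold had a median of 94.9 RPKM in stage 4 and 0.282 RPKM in stage 2. They were longer than the unshared ones, with a median of 1042 bases, and carried a median of 601 reads in stage 4 and 1 read in stage 2. They held 4.48% of the summed RPKM of stage 4 and 0.0193% of that of stage 2. Outside the 2 stages, 60 of the 109 stayed under 1 RPKM in each of the other 4 libraries. Stage 5 was where the rest stood highest: 33 reached 10 RPKM there, against 15 for stage 1, 3 for stage 3 and 4 for the gametophyte. They were listed in the gametophyte for 15.6%.

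The 671 shared unigenes higher by 2-fold but under 16-fold had another profile. Their medians were 21.1 RPKM in stage 4 and 5.95 RPKM in stage 2, and 3.49, 3.25 and 9.32 RPKM in stages 1, 3 and 5. They were listed in the gametophyte for 63.2%, with a median of 1.66 RPKM, and 57.8% were listed in all of the other 4 libraries. Stage 4 was the highest of the 5 capsule libraries for 526 of them (78.4%). Among the 6870 unigenes within 2-fold this was so for 20.2%, but those were not chosen for a high value in stage 4.

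**Figure D4:**
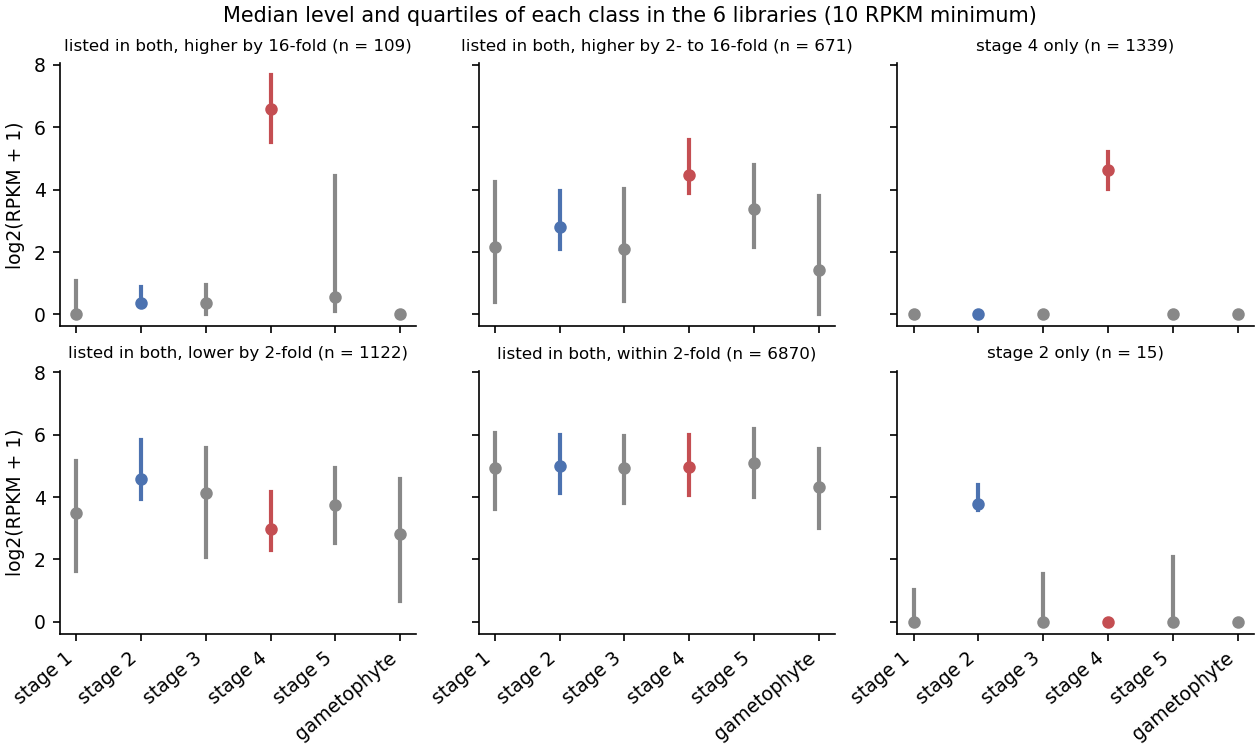
Level of 6 classes of unigenes (10 RPKM minimum in either of stages 4 and 2) in the 6 libraries, as log2(RPKM + 1), with the median as a point and the quartiles as a line. Stage 4 is red, stage 2 is blue and libraries not used to form the classes are grey. The unigenes unique to stage 4 of the pair and those higher by 16-fold have medians under 1 RPKM in every other library, whereas those higher by 2- to 16-fold have a median of 9.32 RPKM in stage 5.

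The lower unigenes did not mirror this. The 1122 shared unigenes lower by 2-fold at the 10 RPKM minimum had medians of 6.80 RPKM in stage 4 and 23.0 RPKM in stage 2, and their medians in stages 1, 3 and 5 lay in between, at 10.3, 16.7 and 12.3 RPKM. In the gametophyte 78.5% of them were listed, with a median of 6.11 RPKM, and 75.2% were listed in all of the other 4 libraries. Stage 4 was the lowest of the 5 capsule libraries for 449 of the 1122 and stage 2 the highest for 677 (60.3%). Among the unigenes within 2-fold these shares were 16.4% and 19.9%, but the lower ones were chosen for a stage 4 value below that of stage 2, which favours both. They held 5.0% of the summed RPKM of stage 4 and 16.3% of that of stage 2. A few very abundant unigenes weigh heavily in this sum.

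The smallest ratio among shared unigenes was that of Unigene19853, of 902 bases. It stood at 1.42 RPKM (7 reads) in stage 4 and at 142 RPKM (739 reads) in stage 2. Its reads were 100.2-fold lower in stage 4 (95% exact interval, 48.4 to 250.0), and the log2 ratio of RPKM + 1 was −5.89. Stage 2 was the only library with a high level, since it was listed neither in stage 1 nor in stage 3 and stood at 0.774 RPKM (4 reads) in stage 5 and 0.580 RPKM (2 reads) in the gametophyte. This profile was not typical of the lowest ratios. The second, of 835 bases, had 26.3 RPKM in stage 4 and 1069 RPKM in stage 2, with 282, 312 and 151 RPKM in stages 1, 3 and 5 and 757 RPKM in the gametophyte. The sixth, of 502 bases, had 1.82 RPKM in stage 4 and 62.7 RPKM in stage 2, with 43.6, 38.1 and 9.04 RPKM in stages 1, 3 and 5 and 73.0 RPKM in the gametophyte. For these, stage 4 was the low library and the other 5 were higher.

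The 12 shared unigenes lower by 16-fold were chosen for the distance between these 2 libraries. Their medians were 1.62 RPKM in stage 4 and 80.9 RPKM in stage 2, and 10 of them had 10 RPKM or more somewhere among the other 4 libraries. That was 83.3%, near the 92.4% of the 6870 shared unigenes within 2-fold and the 75.8% of the 1122 lower by 2-fold, which include the 12. Of the 109 higher ones, 33 did (30.3%).

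The 15 unshared unigenes of stage 2 with at least 10 RPKM were led by Unigene22541, of 201 bases. It was not read in stage 4 and stood at 106 RPKM (122 reads) in stage 2, so that it was at least 38.6-fold lower in stage 4 against the limit of 3 reads there, which is 2.73 RPKM at this length. The exact 95% interval of the inverse read ratio begins at 30.9. It was read in all the other libraries, at 17.3, 32.9 and 14.8 RPKM in stages 1, 3 and 5 and at 6.51 RPKM in the gametophyte. Stage 4 was thus the one library without it. The second, of 675 bases, was not read in stage 4 and had 38.1 RPKM (148 reads) in stage 2, and was highest in the gametophyte at 151 RPKM. The other 13 lay between 10.1 and 21.9 RPKM in stage 2, with 14 to 275 reads. Of the 15, 6 were listed in none of the 4 libraries outside the pair.

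**Figure D5:**
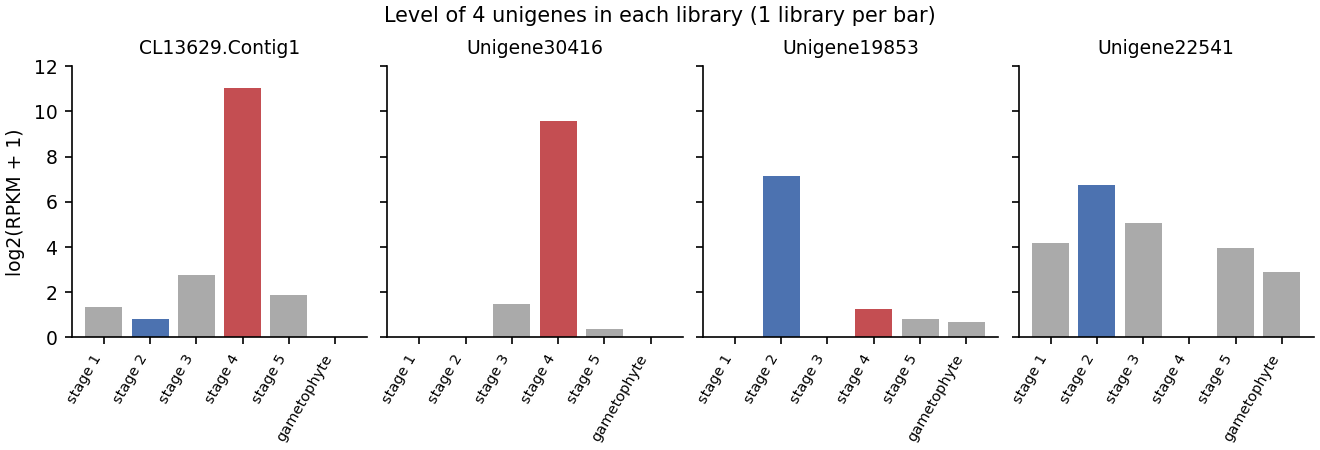
Level of the 4 unigenes named in the text in each of the 6 libraries, as log2(RPKM + 1), 1 library per bar, with stage 4 red and stage 2 blue. CL13629.Contig1 and Unigene30416 are high in stage 4 alone (2129 and 755 RPKM), Unigene19853 is high in stage 2 alone (142 RPKM), and Unigene22541 is read in every library but stage 4.

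The most abundant unigenes were largely common to both stages. The 100 most abundant held 20.7% of the summed RPKM in stage 4 and 22.2% in stage 2, and 65 unigenes were in both lists. Each list was chosen for a high level in its own stage, which favours that direction. Over all 10126 unigenes of at least 10 RPKM in either file, 20.9% were higher and 11.2% lower by 2-fold. Of the 100 of stage 4, 21 were higher and 6 lower by 2-fold, and 11 had under 10 RPKM in stage 2. Of the 100 of stage 2, 2 were higher and 17 lower in stage 4, and 0 had under 10 RPKM in stage 4. The entries new to the stage 4 list thus include unigenes that were nearly unread in stage 2, and the entries that dropped from the stage 2 list were all still well read in stage 4. Among the 1000 most abundant of each, 767 were shared, 42 of those in stage 4 were not listed in stage 2, and 0 of those in stage 2 were missing from stage 4.

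The leading unigenes ranked differently in the 2 stages. The most abundant unigene of stage 2, of 1053 bases, stood at 6496 RPKM in stage 4, where it ranked second, and at 17433 RPKM in stage 2. Its reads were 2.68-fold lower in stage 4 (95% exact interval, 2.65 to 2.72). The most abundant unigene of stage 4, of 248 bases, stood at 8150 RPKM in stage 4 and at 4969 RPKM in stage 2, a read ratio of 1.64 (95% exact interval, 1.59 to 1.69). The second of stage 2, of 789 bases, had 2933 RPKM in stage 4 and 8201 RPKM in stage 2 and was far higher in the gametophyte, at 21908 RPKM. The fourth of stage 2, of 1799 bases, had 775 RPKM in stage 4 and 4178 RPKM in stage 2, and its reads were 5.39-fold lower in stage 4 (95% exact interval, 5.26 to 5.52). In stage 5 it was lower still, at 272 RPKM. Conversely the ninth of stage 4, of 1375 bases, had 2769 RPKM in stage 4 and 321 RPKM in stage 2, a read ratio of 8.62 (95% exact interval, 8.27 to 8.98), with 846 RPKM in stage 5 and no reads in the gametophyte.

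In terms of the whole library, shared unigenes within 2-fold held 74.5% of the summed RPKM in stage 4 and 77.7% in stage 2. Shared unigenes higher by 2-fold held 12% in stage 4 and 2.63% in stage 2, and lower ones 5.37% in stage 4 and 18.0% in stage 2. Unshared unigenes of at least 1 RPKM held 7.54% of stage 4 and 0.981% of stage 2. By reads, which weigh long unigenes more, the unshared ones held 3.03% of stage 4 and 0.222% of stage 2. Reads worked back can be too low, most of all for unigenes listed in a single library, so these read shares may be too low.

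Contigs that share a cluster number in their identifier may be similar sequences between which reads were divided, so the RPKM of each cluster was also summed. Of 7487 clusters with at least 1 RPKM, 564 were higher (7.53%) and 941 lower (12.6%) by 2-fold, close to the 8.04% and 13.0% of 8963 single contigs. Clusters of at least 10 RPKM that were listed in 1 library of the pair numbered 28 in stage 4 and 0 in stage 2. Among shared unigenes outside clusters, 9.42% were higher and 13.9% lower of 18996, against 5.76% and 10.4% of 8437 shared contigs. With the unshared ones, which differ by construction, 4975 were higher and 5298 lower of 24837 outside clusters, including 3186 listed in stage 4 and not in stage 2 and 2655 listed in stage 2 and not in stage 4. Among 1457 clusters with at least 2 contigs of 1 RPKM, 75 had a contig higher and 119 a contig lower beyond 2-fold by the counting interval, and 1 cluster had both, with its sum within 2-fold. A second contig beyond 2-fold in the same direction was present in 28 of the 75 and in 24 of the 119. In 1264 (86.8%) no contig lay beyond 2-fold.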

How the data were processed

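The authors deposited RPKM per unigene, per the file headers, and dashes were taken as 0. How the unigenes were assembled and their reads counted is not given in the sources used here. The members and rules were chosen with earlier results of these data known. Library totals and unigene lengths (200 to 15000 bases) were worked back from the deposited RPKM by requiring whole reads within 0.9 of the last printed digit; a length was found for 100% of unigenes, and reads summed to 99.39% of the implied total in stage 4 and 99.66% in stage 2. The step was tested on simulated data in which stages 2 and 4 had a common mean level apart from planted changes. Abundant unigenes listed in 1 library of the pair were therefore not represented. Reads can be underestimated where they share a factor with the length. Files were joined by identifier, and ratios of RPKM + 1 were described without a test, with a minimum of 1 RPKM in either file and again of 10. Such ratios understate the difference of low unigenes. Unigenes named are the largest and smallest ratio among shared ones and the highest unshared one of each library, at 10 RPKM. Alternatives covered the pseudocount, minimum, scaling, counting interval and, for clusters, the leading contig. Python 3.11.15, numpy 2.4.6, pandas 2.3.3, scipy 1.17.1 and matplotlib 3.10.9 were used.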

Additional observations from a re-analysis of the deposited data

How the results depend on the processing

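No paired analysis was possible because each stage has 1 library and no test was run, and for the same reason no replicate was left out. Of the 21638 shared unigenes within 2-fold, 16768 had a counting interval that covers equality and 6366 one wholly within 2-fold. Below, counts are of unigenes higher and lower in stage 4 by 2-fold. Over all unigenes compared, they were 2119 and 1137 at the 10 RPKM minimum, 2373 and 1083 with a pseudocount of 5 RPKM, 2231 and 1145 by the counting interval, and 2125 and 1745 with at least 20 reads in either library, a setting chosen after seeing the data. In each of these, higher unigenes outnumbered lower ones, where the values as reported gave 5696 and 6466, and the settings leave out or damp low values by construction. The median log2 ratio over all unigenes turned to 0.06 at the 10 RPKM minimum and otherwise stood at −0.05 with a pseudocount of 5 RPKM, −0.16 at equal summed RPKM, −0.03 with median-ratio scaling, −0.45 with upper-quartile scaling and −0.03 with 20 reads. With upper-quartile scaling 33.6% of the unigenes that differ were higher, against 46.8% as deposited.

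For shared unigenes, lower outnumbered higher under every alternative run. The counts were 3909 and 5666 with a pseudocount of 0.1 RPKM, 698 and 946 with 5 RPKM, 780 and 1122 at 10 RPKM, 1215 and 5533 with upper-quartile scaling, 961 and 1716 with 20 reads, and 590 and 983 by the counting interval. Their median log2 ratio was −0.11 and −0.06 with pseudocounts of 0.1 and 5 RPKM, −0.04 with no minimum, −0.05 at 10 RPKM and with median-ratio scaling, −0.17 at equal summed RPKM and −0.45 with upper-quartile scaling. Unshared unigenes numbered 6191 in stage 4 and 7668 in stage 2 with no minimum, 1339 and 15 at 10 RPKM, and 1164 and 29 with 20 reads. The 1474 and 48 unigenes of 10 RPKM against under 1 RPKM became 405 and 22 at 500 bases or more, chosen after seeing the data. In the other 34 alternatives for the counts, medians and clusters, counts stayed within 1.5 times the reported ones, for example 3210 higher and 4707 lower shared unigenes with a pseudocount of 0.5 RPKM, against 2275 and 3520, and medians lay between −0.10 and −0.07, and the log2 ratios of the 4 named unigenes kept their sign in all 12 of theirs.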

Other observations

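The unigenes high in stage 4 and nearly absent from stage 2 were unevenly spread over the identifier numbers, a pattern noticed after the values were seen. Levels of 10 RPKM or more in stage 4 with under 1 RPKM in stage 2 were held by 1474 unigenes, of which 1416 were single unigenes. Of these, 82.1% had a number above 30000. Among all 52722 single unigenes 48.2% had such a number, and among the 6866 with at least 10 RPKM in stage 4 or stage 2 these were 1376. Put the other way, 84.5% of the 1376 single unigenes above 30000 that reached 10 RPKM in either stage were high in stage 4 and under 1 RPKM in stage 2. Of the 100 with the highest stage 4 level, 45 were numbered from 30001 to 31000, a stretch that holds 855 listed unigenes. What the numbering follows is not given in the sources used here. In stretches of 2000 numbers, the share of unigenes high in stage 4 by this rule ran from 0 to 2.68% up to number 30000 and from 3.53% to 7.29% above it. Median lengths of these stretches ran from 284 to 1022 bases up to number 30000 and from 220 to 389 bases above it. Between stretches of like length the gap varied. The numbers 8001 to 10000 had a median of 284 bases and a share of 2.44%, and 38001 to 40000 had 284 bases and 4.01%. The numbers 12001 to 14000 had 348 bases and 0.856%, and 32001 to 34000 had 341 bases and 5.17%.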
